A study of Mus musculus with 6 samples.

Results

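Toll-like receptor genes and the kinase gene Irak4 were followed in macrophages from hearts of legumain knockout (Lgmn KO) and wild-type (WT) mice after myocardial infarction. The 10 genes were the rows named Tlr1, Tlr2, Tlr3, Tlr4, Tlr6, Tlr7, Tlr8, Tlr9, Tlr13 and Irak4 among the 34745 genes of the deposited expression table. They comprised 4 receptors of the cell surface (Tlr1, Tlr2, Tlr4 and Tlr6), 5 receptors of endosomes (Tlr3, Tlr7, Tlr8, Tlr9 and Tlr13) and 1 signalling kinase. All 10 passed the filter on low counts that left 12546 genes for testing. Lgmn KO had 3 libraries, replicates 1, 2 and 4 of mice labelled as legumain knockouts, and WT had 3 libraries, replicates 1, 2 and 3. Mice of both groups were of the C57BL/6 strain, and all were 8 weeks old. The sources used here do not give the allele of the knockout. Both left anterior descending artery ligation and sham surgery are mentioned without being assigned to animals, whereas the series design places the samples after infarction. Living cells from digested hearts were stained for CD45, CD64 and CD11b, which mark leukocytes, macrophages and myeloid cells. Separate animals are not stated for the libraries, and p-values therefore reflect only the spread among these libraries, which may be technical.

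Toll-like receptors recognise molecules of microbes and of damaged cells and thereby start inflammatory gene expression. Those at the cell surface bind mainly lipids, lipopeptides and proteins, and those in endosomes bind nucleic acids, among them RNA and DNA of engulfed material. All the receptors studied here except Tlr3 signal through the adaptor MyD88, which gathers Irak4 and related kinases at the receptor; Tlr3 uses the adaptor TRIF (gene Ticam1), and Tlr4 uses both. The endosomal receptors depend on the chaperone UNC93B1 to leave the endoplasmic reticulum, and several are cut by lysosomal proteases before they signal. Legumain, an asparaginyl endopeptidase of the lysosome, is among the proteases described as cutting mouse Tlr9. In macrophages of the injured heart, surface receptors such as Tlr2 and Tlr4 are known as sensors of molecules released by dying cells.

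Lgmn itself had 78.7, 88.5 and 83.5 CPM (read counts scaled to library sizes with TMM factors) in the Lgmn KO libraries, against 2205, 2692 and 2277 CPM in the WT libraries, which matched the labels. Total counts per library lay between 19546253 and 24086976, and 3 counts, the limit that a count of 0 allows in counting error alone, corresponded to 0.125 to 0.153 CPM. Over all 12546 tested genes the quasi-likelihood F test of edgeR, with p-values adjusted by Benjamini-Hochberg, called 99 genes (0.789%) at an adjusted p below 0.05, with 39 (0.311%) above and 60 (0.478%) below WT in Lgmn KO. With library sizes left as total counts, 165 genes were called, 47 higher and 118 lower. The macrophage markers, among them Adgre1, Cd68 and Lyz2, summed to 19738 to 22972 CPM in Lgmn KO and 22032 to 23294 CPM in WT (10 markers), most of it Lyz2. Itgam, the gene of the stained protein CD11b, was left out because more than 1 row of the deposited table has that name. Within the list of macrophage markers the complement gene C1qa was called lower. C1qb, C1qc, Csf1r and Mertk also had all Lgmn KO libraries below all WT libraries. Fcgr1, which encodes the stained surface protein CD64, overlapped (78.2 to 123 CPM in Lgmn KO, 114 to 311 CPM in WT). Markers of resident cardiac macrophages overlapped (137 to 175 CPM in Lgmn KO, 173 to 310 CPM in WT), with Lyve1 at 0 counts in every library. The summed markers of monocytes overlapped (623 to 675 CPM in Lgmn KO, 598 to 885 CPM in WT), most of the sum being Chil3 and F10, whereas the monocyte genes Ccr2 (3.88 to 6.42 CPM in Lgmn KO, 11.4 to 67.2 CPM in WT) and Ly6c2 (2.04 to 13.2 CPM in Lgmn KO, 17.5 to 21.3 CPM in WT) did not. Those of endothelial cells overlapped in sum (178 to 234 CPM in Lgmn KO, 153 to 208 CPM in WT), most of it Vwf, whereas Flt1 was called lower (0.920 to 1.43 CPM in Lgmn KO, 6.38 to 11.1 CPM in WT, adjusted p = 0.0150, edgeR) and Pecam1 did not overlap (0.141 to 0.409 CPM in Lgmn KO, 0.828 to 1.76 CPM in WT). The sums of neutrophil markers (271 to 327 CPM in Lgmn KO, 311 to 454 CPM in WT) and cardiomyocyte markers (3.01 to 4.04 CPM in Lgmn KO, 3.38 to 4.26 CPM in WT) overlapped, with Mmp8 and Tnnt2 apart and lower in Lgmn KO and Cxcr2 apart and higher. The summed markers of T and NK cells did not overlap (0.296 to 0.990 CPM in Lgmn KO, 3.75 to 8.84 CPM in WT). Nor did the sums for dendritic cells (3.21 to 5.09 CPM in Lgmn KO, 5.31 to 15.6 CPM in WT) or fibroblasts (45.4 to 116 CPM in Lgmn KO, 132 to 180 CPM in WT). Of 4 tested dendritic cell markers, Zbtb46 was apart and called lower, and 3 overlapped, among them Cd209a with a log2 fold change of 0.68. Of 5 tested fibroblast markers, 3 were apart and lower, and 2, Col1a2 and Dcn, overlapped. Of 46 tested markers in all lists, 3 were called lower in edgeR, and all Lgmn KO libraries lay below all WT libraries for 17 and above them for 1, beside 13% and 10.7% of all tested genes.

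Tlr2 and Irak4 fell in Lgmn KO, none of the 10 genes rose, and the other 8 did not pass the test. The share called lower, 2 of 10, stood beside 0.478% of all tested genes called lower. Groups that did not overlap were found for 3 members (23.7% of all tested genes in either direction), namely Tlr2 and Irak4 with all Lgmn KO libraries below all WT libraries (13% of all tested genes) and Tlr6 with all of them above (10.7% of all tested genes). An unadjusted p below 0.05 was found for 6 members and for 17.5% of all tested genes, and 7 members had a negative log2 fold change, as had 50.4% of all tested genes. DESeq2 and limma-voom with sample weights also called Tlr2 and Irak4 and no other member, beside 5.56% and 2.71% of the genes they tested. In the authors' deposited table a q below 0.05 was given for Tlr1, Tlr2, Tlr4 and Irak4, beside 3.81% of the genes with a q. The edgeR calls depended on which libraries were fitted. Tlr2 lost its call when Lgmn KO replicate 1, 2 or 4 or WT replicate 3 was left out (adjusted p of 0.0552 to 0.124, edgeR), and Irak4 lost it for every library left out except WT replicate 1 (adjusted p of 0.0944 to 0.158, edgeR). Without WT replicate 1 the number called was 4, namely Tlr2, Irak4, Tlr3 and Tlr8, all lower. That fit also called 639 of all genes, 470 of them lower, against 99 and 60 with no library left out.

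**Figure D1:**
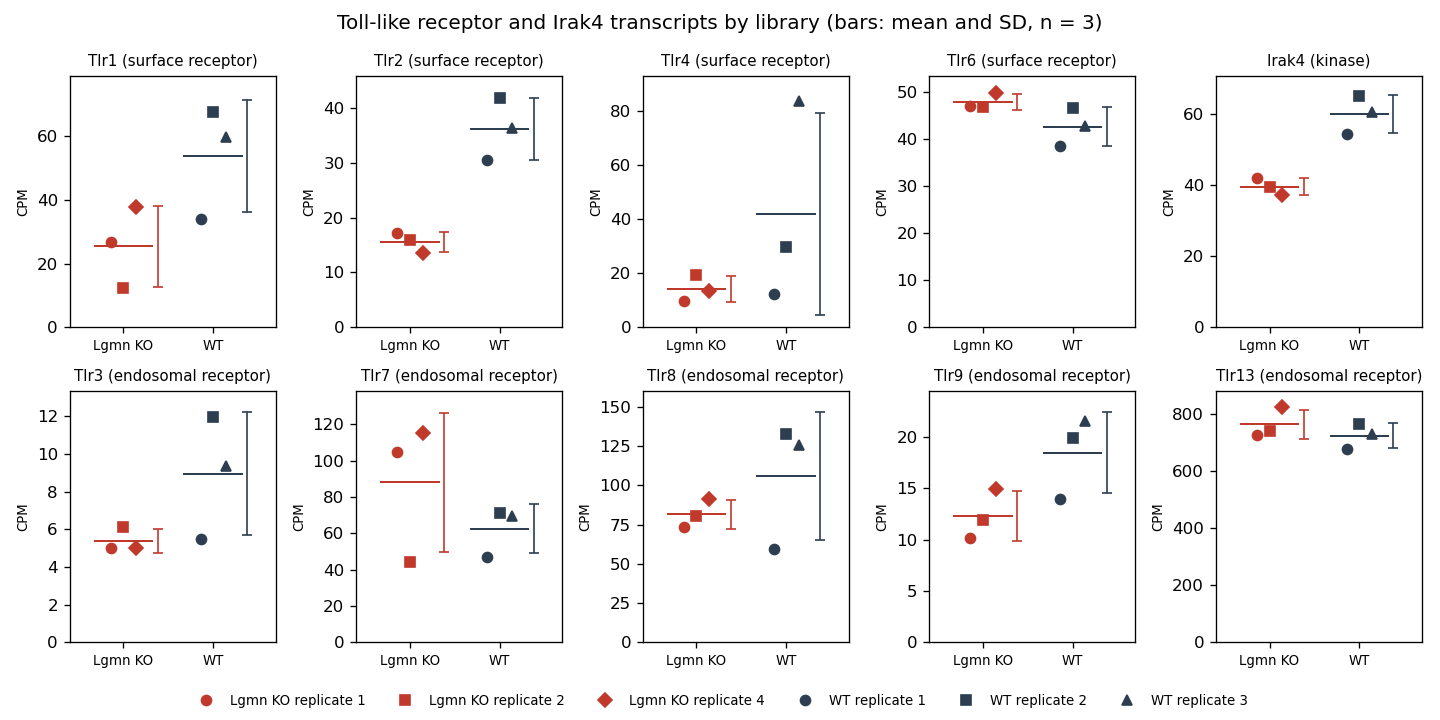
Level of each of the 10 genes in CPM (vertical axes, starting at 0) in the 3 Lgmn KO and 3 WT libraries, with a line at the mean and a bar of 1 SD. Tlr2 and Irak4 had every Lgmn KO library below every WT library, Tlr6 had every Lgmn KO library above, and the other 7 overlapped.

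The DNA in front of the members' transcription starts is shown for the genes the results turn on: Tlr2 and Irak4, which were called lower, Tlr1 and Tlr6, which lie next to each other, and Tlr13, which was the most abundant. The promoter sequences are from RefSeq (GRCm38.p6), which gave a window of 250 bases before the start for 8 of the 10 members, and not for Tlr4 and Tlr7. Only the stretch that also lies before the gene's first base in GENCODE M21 is printed, 5′ to 3′ on the gene's strand, in lower case with motif matches in capitals. The motifs searched on both strands were the NF-kB consensus, GAGGAA as the core bound by PU.1, the interferon-stimulated response element (GAAA, any 2 bases, GAAA) and the AP-1 element TGANTCA.
Tlr2 (chr3:83841768-83841858, minus strand): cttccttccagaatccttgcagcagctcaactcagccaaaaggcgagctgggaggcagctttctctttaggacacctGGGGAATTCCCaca
Irak4 (chr15:94543410-94543642, plus strand): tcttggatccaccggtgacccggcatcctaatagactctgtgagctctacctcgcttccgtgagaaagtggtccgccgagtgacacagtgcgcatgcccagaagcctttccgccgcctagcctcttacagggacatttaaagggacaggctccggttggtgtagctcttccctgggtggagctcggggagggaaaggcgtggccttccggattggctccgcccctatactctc
Tlr1 (chr5:64933564-64933808, minus strand): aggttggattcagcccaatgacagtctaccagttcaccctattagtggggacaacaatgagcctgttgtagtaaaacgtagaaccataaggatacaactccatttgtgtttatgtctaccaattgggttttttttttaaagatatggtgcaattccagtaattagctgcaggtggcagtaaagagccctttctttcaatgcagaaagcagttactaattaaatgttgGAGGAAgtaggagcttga
Tlr6 (chr5:64960098-64960298, minus strand): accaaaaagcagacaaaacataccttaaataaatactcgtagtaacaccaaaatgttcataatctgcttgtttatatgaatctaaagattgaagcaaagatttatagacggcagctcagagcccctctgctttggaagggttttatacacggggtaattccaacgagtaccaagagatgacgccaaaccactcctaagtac
Tlr13 (chrX:106143025-106143203, plus strand): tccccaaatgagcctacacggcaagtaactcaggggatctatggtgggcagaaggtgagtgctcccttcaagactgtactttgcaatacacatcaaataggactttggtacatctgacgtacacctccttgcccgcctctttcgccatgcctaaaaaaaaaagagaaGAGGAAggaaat
The capitals in Tlr2 are overlapping matches to the NF-kB consensus, which 7.25% of the 32851 promoter windows of 250 bases held. The capitals in Tlr1 and Tlr13 are GAGGAA, which 23.3% held. These shares are for whole windows, and the printed stretches are shorter. The windows of Irak4 and Tlr6 held none of the motifs, while a further start of Tlr6 in RefSeq had overlapping matches to the interferon-stimulated response element (2.98% of windows). Of the members not printed, Tlr3 had an NF-kB match, Tlr8 had GAGGAA, and Tlr9 had GAGGAA and TGANTCA (6.75% of windows). The windows of Tlr3 and of the further Tlr6 start lie wholly within the genes as GENCODE M21 places them, not before their first base. The matches are letters in a window and do not show binding.

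Tlr2, the receptor that pairs with Tlr1 or Tlr6 to bind bacterial lipopeptides and that also senses material of damaged cells, was lower in Lgmn KO. Its level was 17.1, 15.9 and 13.6 CPM in Lgmn KO replicates 1, 2 and 4, against 30.5, 41.8 and 36.3 CPM in WT replicates 1, 2 and 3. The lowest WT library thus stood above the highest Lgmn KO library, and the 3 Lgmn KO libraries lay close to each other. Tlr2 averaged 15.5 ± 1.78 CPM in Lgmn KO libraries and 36.2 ± 5.62 CPM in WT libraries (SD, n = 3 each), for a log2 fold change of -1.22, a standard error of 0.14 and an adjusted p of 0.0224 (edgeR). Tlr2 rested on 289 to 347 counts in Lgmn KO and 627 to 902 in WT. In the authors' deposited table Tlr2 had a log2 fold change of -1.23 with q = 6.68e-09. The gene (ENSMUSG00000027995) spans 83836272 to 83841767 of chromosome 3 (minus strand, GRCm38) and is protein coding, with 3 exons. None of its 50-base stretches occurs in transcripts of another gene. Fewer cells that express a gene and less RNA per cell cannot be told apart in these pooled cells. The 17 tested markers that lay wholly lower in Lgmn KO included Ccr2, Ly6c2, Flt1, Zbtb46 and the complement genes C1qa, C1qb and C1qc. They shared with Tlr2 and Irak4 the separation of the groups, but not always the order of libraries within a group. Flt1, for example, had 11.1, 7.41 and 6.38 CPM in WT replicates 1, 2 and 3. The part of these markers in the fall of Tlr2 and Irak4 was not tested.

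Tlr1, which binds triacylated lipopeptides together with Tlr2, varied strongly among libraries of both groups. It had 26.7, 12.3 and 37.7 CPM in Lgmn KO replicates 1, 2 and 4, against 34.1, 67.8 and 59.8 CPM in WT replicates 1, 2 and 3. WT replicate 1 lay below Lgmn KO replicate 4, so the groups overlapped, and Lgmn KO replicate 2 was lowest. Tlr1 averaged 25.5 ± 12.7 CPM in Lgmn KO libraries and 53.9 ± 17.6 CPM in WT libraries (SD, n = 3 each), for a log2 fold change of -1.08, a standard error of 0.40 and an adjusted p of 0.227 (edgeR). Without Lgmn KO replicate 2 it was -0.74. The authors' deposited table listed Tlr1 as down, with a log2 fold change of -1.09 and q = 0.0322.

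Tlr4, the receptor for bacterial lipopolysaccharide, had its mean in WT set largely by a single library. It had 9.67, 19.4 and 13.4 CPM in Lgmn KO replicates 1, 2 and 4, against 12.5, 29.6 and 83.8 CPM in WT replicates 1, 2 and 3. WT replicate 1 was as low as the Lgmn KO libraries, and WT replicate 3 stood far above all other libraries with 2010 counts, against 640 counts in WT replicate 2. Tlr4 averaged 14.2 ± 4.89 CPM in Lgmn KO libraries and 42.0 ± 37.3 CPM in WT libraries (SD, n = 3 each), for a log2 fold change of -1.57, a standard error of 0.63 and an adjusted p of 0.258 (edgeR). Without WT replicate 3 it was -0.57. In the authors' deposited table Tlr4 was listed as down with a log2 fold change of -1.57 and q = 0.0336. The gene (ENSMUSG00000039005) lies on chromosome 4 from 66827584 to 66930284 on the plus strand.

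Tlr6, which joins Tlr2 in binding diacylated lipopeptides, was the steadiest of the surface receptors. It had 46.9, 46.8 and 49.8 CPM in Lgmn KO replicates 1, 2 and 4, against 38.4, 46.6 and 42.7 CPM in WT replicates 1, 2 and 3. Every Lgmn KO library stood above every WT library, but by only a small margin over WT replicate 2. Tlr6 averaged 47.8 ± 1.68 CPM in Lgmn KO libraries and 42.6 ± 4.11 CPM in WT libraries (SD, n = 3 each), for a log2 fold change of 0.17, a standard error of 0.09 and an adjusted p of 0.389 (edgeR).

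Tlr1 and Tlr6 are neighbours of like sequence on the minus strand of chromosome 5. Tlr1 (ENSMUSG00000044827) spans 64924679 to 64933563 and Tlr6 (ENSMUSG00000051498) spans 64952031 to 64960097, with 18467 bases between them. Their transcripts share 454 stretches of 50 bases, 13.6% of those of Tlr1 and 12.3% of those of Tlr6, so reads from these stretches could be split between them or dropped. With all other genes counted too, 15.4% of the stretches of Tlr1 and 12.3% of those of Tlr6 occur in transcripts of another gene. The sources used here do not say how such reads were counted, and both values are uncertain to that extent. The longest identical run, 229 bases, covers coding bases 1468 to 1696 of 2385 in Tlr1 (chr5:64925537-64925765) and 1507 to 1735 of 2418 in Tlr6 (chr5:64953828-64954056), both on the minus strand of GRCm38, and is printed because a read within it fits both genes.
Tlr1 and Tlr6, shared run: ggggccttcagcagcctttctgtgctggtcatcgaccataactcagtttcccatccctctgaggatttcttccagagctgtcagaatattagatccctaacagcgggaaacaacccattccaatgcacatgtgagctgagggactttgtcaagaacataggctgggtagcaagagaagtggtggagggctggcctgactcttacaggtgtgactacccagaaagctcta
The ratio of Tlr1 to Tlr6 in FPKM (counts scaled to gene length and library size, as deposited) was 0.381, 0.175 and 0.507 in Lgmn KO replicates 1, 2 and 4, against 0.594, 0.974 and 0.937 in WT replicates 1, 2 and 3. Every WT ratio stood above every Lgmn KO ratio.

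The relation of Tlr2 to its partner Tlr6 did not overlap between the groups. The ratio of Tlr2 to Tlr6 in FPKM was 0.499, 0.464 and 0.374 in Lgmn KO replicates 1, 2 and 4, against 1.09, 1.23 and 1.16 in WT replicates 1, 2 and 3. With the deposited gene lengths Tlr2 was thus above Tlr6 in each WT library and below it in each Lgmn KO library. With merged exon lengths, an alternative chosen after seeing the data, Tlr2 was below Tlr6 in WT replicate 1 as well (10.3 against 10.5 FPKM). Tlr6 made up 49.9%, 52.8% and 48.9% of the summed FPKM of the 4 surface receptors in Lgmn KO replicates 1, 2 and 4, against 34.7%, 27.9% and 23.3% in WT replicates 1, 2 and 3.

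**Figure D2:**
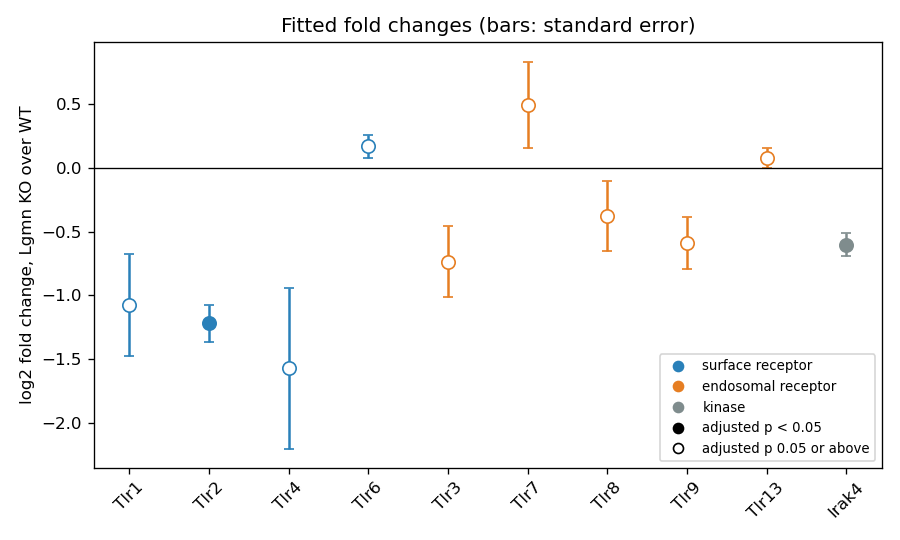
Fitted log2 fold change, Lgmn KO relative to WT (vertical axis) for the 10 genes, with bars of 1 standard error from edgeR; colours mark the class and filled points an adjusted p below 0.05. Tlr2 at -1.22 and Irak4 at -0.60 are filled, while Tlr4 at -1.57 has the widest bar.

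None of the 5 endosomal receptors passed the test in edgeR, and 0 were called by DESeq2 or by limma-voom with sample weights. Of all the genes they tested, these tools called 0.789%, 5.56% and 2.71% in either direction. An unadjusted p below 0.05 was found for 2 of the 5 endosomal receptors, beside 17.5% of all tested genes. The median log2 fold change was -0.38 over the 5 endosomal receptors and -1.15 over the 4 surface receptors, beside -0.00 over all tested genes. Negative values were found for 3 of 5 endosomal and 3 of 4 surface receptors, beside 50.4% of all tested genes. No test of the difference between the classes was made, because the members were chosen with results of these data known.

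Tlr13, the mouse receptor for a stretch of bacterial ribosomal RNA, was by far the most abundant of the receptors. It had 727, 738 and 823 CPM in Lgmn KO replicates 1, 2 and 4, against 676, 764 and 729 CPM in WT replicates 1, 2 and 3. The groups overlapped, with WT replicate 2 above Lgmn KO replicates 1 and 2. Tlr13 averaged 763 ± 52.2 CPM in Lgmn KO libraries and 723 ± 44.6 CPM in WT libraries (SD, n = 3 each), for a log2 fold change of 0.08, a standard error of 0.08 and an adjusted p of 0.682 (edgeR). The gene (ENSMUSG00000033777) lies on chromosome X from 106143204 to 106160493 on the plus strand.

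Tlr9, the receptor for DNA rich in unmethylated CpG, is a receptor with a described link to legumain. It had 10.1, 11.9 and 14.9 CPM in Lgmn KO replicates 1, 2 and 4, against 13.97, 19.9 and 21.5 CPM in WT replicates 1, 2 and 3. The groups overlapped by a small margin, since Lgmn KO replicate 4 stood above WT replicate 1. Tlr9 averaged 12.3 ± 2.42 CPM in Lgmn KO libraries and 18.5 ± 3.98 CPM in WT libraries (SD, n = 3 each), for a log2 fold change of -0.59, a standard error of 0.20 and an adjusted p of 0.201 (edgeR). These are transcript levels and carry no information on the cutting of the protein. Markers of B cells and of plasmacytoid dendritic cells, known for Tlr7 and Tlr9, overlapped between the groups. They summed to 8.94 to 11.97 CPM in Lgmn KO and 7.35 to 22.5 CPM in WT for B cells, and to 0.790 to 1.46 CPM in Lgmn KO and 1.02 to 1.63 CPM in WT for plasmacytoid dendritic cells, whose markers Siglech and Klk1 were at 0 counts in every library. Tlr9 (ENSMUSG00000045322) lies on chromosome 9 from 106222598 to 106226883 on the plus strand.

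Tlr7, the receptor for single-stranded RNA, was split within the Lgmn KO group. It had 105, 44.3 and 115 CPM in Lgmn KO replicates 1, 2 and 4, against 47.1, 71.0 and 69.6 CPM in WT replicates 1, 2 and 3. Lgmn KO replicates 1 and 4 stood above all WT libraries, whereas Lgmn KO replicate 2 stood below them all. Tlr7 averaged 88.1 ± 38.3 CPM in Lgmn KO libraries and 62.6 ± 13.4 CPM in WT libraries (SD, n = 3 each), for a log2 fold change of 0.49, a standard error of 0.34 and an adjusted p of 0.507 (edgeR). Over the fits with other settings or without 1 library its log2 fold change lay between 0.23 and 0.82.

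Tlr8, a relative of Tlr7 that recognises RNA breakdown products in humans, had 73.2, 80.2 and 91.4 CPM in Lgmn KO replicates 1, 2 and 4, against 59.2, 133 and 126 CPM in WT replicates 1, 2 and 3. WT replicate 1 lay below all Lgmn KO libraries, and the other WT libraries lay above them. Tlr8 averaged 81.6 ± 9.17 CPM in Lgmn KO libraries and 106 ± 40.7 CPM in WT libraries (SD, n = 3 each), for a log2 fold change of -0.38, a standard error of 0.28 and an adjusted p of 0.540 (edgeR). Without WT replicate 1 the log2 fold change was -0.66 (adjusted p of 0.0199, edgeR), in a fit that called 639 of all genes. Tlr8 (ENSMUSG00000040522, 167242696 to 167264329) and Tlr7 (ENSMUSG00000044583, 167304929 to 167330558) are neighbours on the minus strand of chromosome X, with 40599 bases between them. Their ratio, Tlr7 over Tlr8 in FPKM, was 0.973, 0.375 and 0.856 in Lgmn KO replicates 1, 2 and 4, against 0.540, 0.363 and 0.375 in WT replicates 1, 2 and 3, so Lgmn KO replicate 2 lay with the WT libraries.

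Tlr3, the receptor for double-stranded RNA, was the least abundant. It had 5.03, 6.13 and 5.00 CPM in Lgmn KO replicates 1, 2 and 4, against 5.50, 11.99 and 9.38 CPM in WT replicates 1, 2 and 3. WT replicate 1 lay inside the Lgmn KO range and the other WT libraries above it. Tlr3 averaged 5.39 ± 0.646 CPM in Lgmn KO libraries and 8.96 ± 3.27 CPM in WT libraries (SD, n = 3 each), for a log2 fold change of -0.73, a standard error of 0.28 and an adjusted p of 0.232 (edgeR). Without WT replicate 1 it was called lower (log2 fold change -0.99, adjusted p of 0.0322, edgeR), in a fit that called 639 of all genes. Tlr3 (ENSMUSG00000031639) lies on the minus strand of chromosome 8, from 45395665 to 45410608 in the deposited table. In GENCODE M21 it shares 381 of its 5207 exonic bases with the antisense gene Gm45542, a name the deposited table does not hold. The sources used here do not say whether counting used the strand, so reads from those shared bases cannot be told apart.

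Irak4, the kinase that MyD88 recruits and that starts the phosphorylation cascade below the receptors, was lower in Lgmn KO. It had 41.8, 39.5 and 37.1 CPM in Lgmn KO replicates 1, 2 and 4, against 54.3, 64.8 and 60.5 CPM in WT replicates 1, 2 and 3. The highest Lgmn KO library stood well below the lowest WT library. Irak4 averaged 39.5 ± 2.35 CPM in Lgmn KO libraries and 59.9 ± 5.30 CPM in WT libraries (SD, n = 3 each), for a log2 fold change of -0.60, a standard error of 0.09 and an adjusted p of 0.0410 (edgeR). The authors' deposited table gave Irak4 a log2 fold change of -0.61 and q = 0.00195, without listing it as up or down. The gene (ENSMUSG00000059883) lies on chromosome 15 from 94543643 to 94581815 on the plus strand of GRCm38, with 13 exons. It shares 395 exonic bases with Twf1 on the other strand. Whether counting used the strand is not stated, so reads from these bases may belong to either gene. Twf1, which encodes an actin-binding protein, averaged 83.7 ± 6.06 CPM in Lgmn KO libraries and 87.7 ± 8.04 CPM in WT libraries (SD, n = 3 each), for a log2 fold change of -0.07 and an adjusted p of 0.764 (edgeR).

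Per gene length, the receptors stood in an order led by Tlr13 in both groups. Tlr13 averaged 181 ± 11.5 FPKM in Lgmn KO and 174 ± 8.85 FPKM in WT (SD, n = 3 each, as for all levels that follow). Behind it in Lgmn KO came Tlr6, at 11.5 ± 0.340 FPKM in Lgmn KO and 10.4 ± 0.895 FPKM in WT. Tlr8, the receptor behind Tlr13 in WT, was at 10.4 ± 1.12 FPKM in Lgmn KO and 13.6 ± 5.09 FPKM in WT. The related Tlr7 was at 7.61 ± 3.28 FPKM in Lgmn KO and 5.45 ± 1.11 FPKM in WT. In the middle of the order Tlr2 was at 5.13 ± 0.606 FPKM in Lgmn KO and 12.04 ± 1.75 FPKM in WT, where it ranked directly behind Tlr8. Its partner Tlr1 was at 4.12 ± 2.03 FPKM in Lgmn KO and 8.77 ± 2.79 FPKM in WT. Tlr9 was at 3.51 ± 0.675 FPKM in Lgmn KO and 5.32 ± 1.09 FPKM in WT, and Tlr4 was at 2.09 ± 0.730 FPKM in Lgmn KO and 6.20 ± 5.47 FPKM in WT. Tlr3 came last, at 0.938 ± 0.118 FPKM in Lgmn KO and 1.57 ± 0.559 FPKM in WT. In both groups Tlr13 stood above the ranges of all the other receptors. Tlr3 stood below them all in Lgmn KO, while in WT its range (0.981 to 2.09 FPKM) overlapped that of Tlr4 (1.88 to 12.3 FPKM). In Lgmn KO neighbours in the order overlapped from Tlr6 down to Tlr9, and Tlr4 lay below Tlr9 but overlapped Tlr1; in WT all neighbours from Tlr8 down to Tlr9 overlapped. Irak4 was at 7.25 ± 0.455 FPKM in Lgmn KO and 11.1 ± 0.864 FPKM in WT (SD, n = 3 each).

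The gene length behind these values bears on the order. For Tlr7, Tlr8 and Tlr1 the table's length was 2.82, 2.18 and 1.84 times the merged exons of GENCODE M21, so their FPKM are low by those factors beside a measure over merged exons; for the other members the factor lay between 0.971 and 1.22. With merged exons Tlr8 was at 22.6 ± 2.45 FPKM in Lgmn KO and 29.6 ± 11.1 FPKM in WT, Tlr7 at 21.4 ± 9.23 FPKM in Lgmn KO and 15.4 ± 3.12 FPKM in WT, and Tlr1 at 7.58 ± 3.74 FPKM in Lgmn KO and 16.1 ± 5.13 FPKM in WT (SD, n = 3 each). Tlr13 stayed highest and Tlr3 lowest in mean. The ratio of a pair of receptors carries the same factor in every library, so the order of the libraries by that ratio does not depend on it, but which receptor of a pair is higher can.

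**Figure D3:**
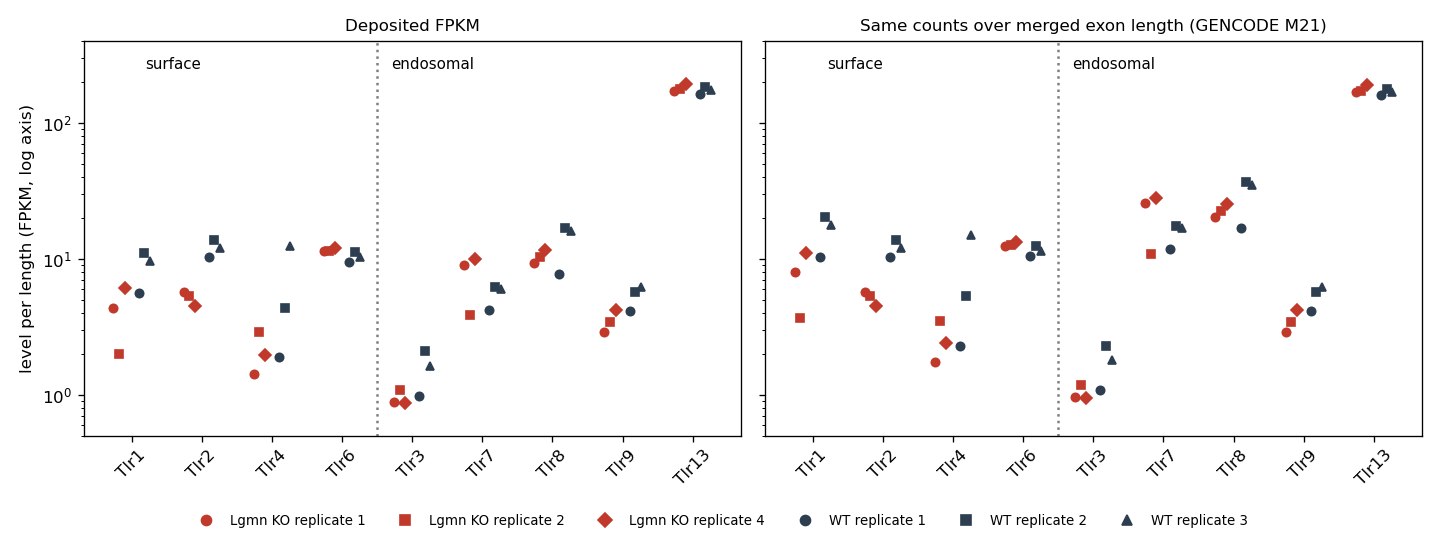
Level per gene length (FPKM, log axis) of the 9 receptors in each library, with the deposited FPKM on the left and the same counts over merged exon length on the right. Tlr13 lies far above the others in both panels, Tlr3 is lowest, and Tlr1, Tlr7 and Tlr8 are higher with merged exons.

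Summed over the class, surface receptors did not overlap between the groups, with Lgmn KO below WT, and endosomal receptors overlapped. The summed FPKM of Tlr1, Tlr2, Tlr4 and Tlr6 were 22.7, 21.5 and 24.4 in Lgmn KO replicates 1, 2 and 4, against 27.3, 40.5 and 44.3 in WT replicates 1, 2 and 3, with means of 22.9 ± 1.46 in Lgmn KO and 37.4 ± 8.91 in WT (SD, n = 3 each). Those of the 5 endosomal receptors were 195, 195 and 221 in Lgmn KO replicates 1, 2 and 4, against 182, 213 and 204 in WT replicates 1, 2 and 3, with means of 204 ± 14.9 in Lgmn KO and 199.6 ± 16.2 in WT (SD, n = 3 each). Most of the endosomal sum was Tlr13. Without it the endosomal sum was 22.2, 18.6 and 26.6 FPKM in Lgmn KO replicates 1, 2 and 4, against 17.0, 30.9 and 29.9 FPKM in WT replicates 1, 2 and 3, and the groups still overlapped.

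The log2 ratio of the summed surface to the summed endosomal FPKM was -3.10, -3.18 and -3.18 in Lgmn KO replicates 1, 2 and 4, against -2.73, -2.40 and -2.20 in WT replicates 1, 2 and 3. The means were -3.16 ± 0.0451 in Lgmn KO and -2.44 ± 0.270 in WT (SD, n = 3 each), a difference of -0.71, and the groups did not overlap. Leaving out Tlr6 and Tlr13, the receptor of each class with the highest mean FPKM over all libraries of both groups, the difference was -1.03. That choice removed the only surface receptor with a positive log2 fold change (Tlr6, 0.17). In WT the mean of Tlr2 was above that of Tlr6 (12.04 against 10.4 FPKM). Tlr13 alone made up 79.4%, 81.5% and 79.2% of the summed FPKM of all 9 receptors in Lgmn KO replicates 1, 2 and 4, against 78.8%, 71.9% and 70.1% in WT replicates 1, 2 and 3. With merged exons those shares were 68.4%, 73.2% and 67.9% in Lgmn KO and 70.4%, 60.8% and 59.2% in WT, and the groups overlapped.

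**Figure D4:**
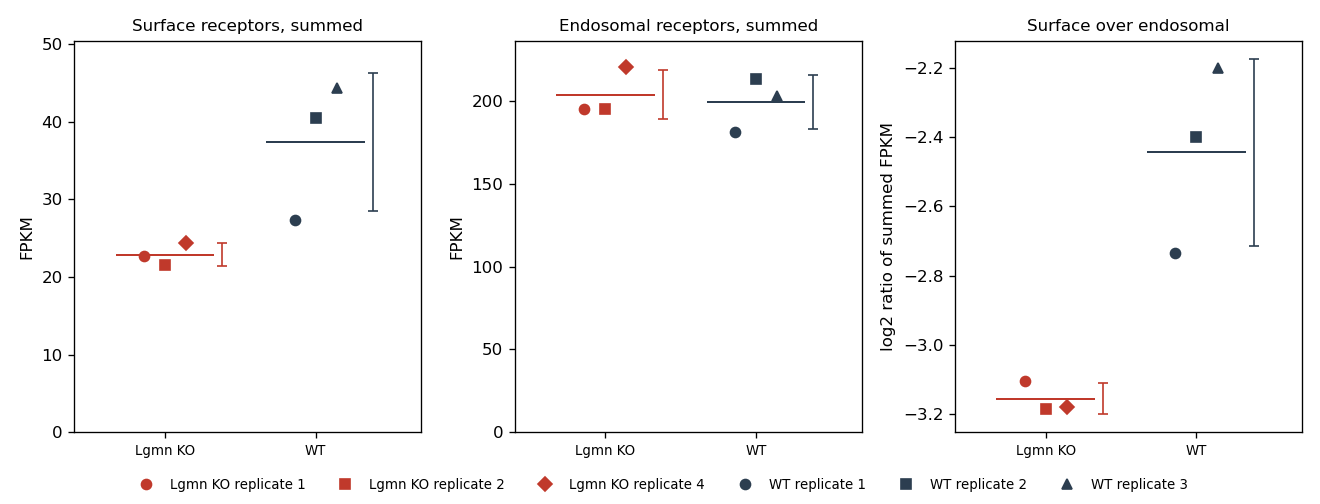
Summed FPKM of the surface receptors (left) and of the endosomal receptors (middle), and the log2 ratio of the sums (right), in each library, with a line at the mean and a bar of 1 SD (n = 3). Surface sums were 21.5 to 24.4 in Lgmn KO and 27.3 to 44.3 in WT, while the endosomal sums overlapped.

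The other genes of the pathway were read from a list of 77, all of which were in the table and 70 of which were tested. Of these, 3 were called lower in Lgmn KO and 1 higher, beside 0.478% and 0.311% of all tested genes. Lgmn itself was among the lower genes, beside Il1b and Acod1, and Ctsk was the higher gene. A negative log2 fold change was found for 45 of 70, beside 50.4% of all tested genes. Groups did not overlap for 22 lower and 5 higher genes (13% and 10.7% of all tested genes). The median was -0.10 (-0.09 over 69 genes without Lgmn), beside -0.00 over all tested genes.

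Of 3 receptor genes outside the members only Tlr12 was tested, with a log2 fold change of -1.33 (adjusted p = 0.335, edgeR), while Tlr5 and Tlr11 were too low. Upstream of the receptors, none of 6 co-receptor genes and none of 7 trafficking genes was called in edgeR, beside 0.789% of all tested genes. An unadjusted p below 0.05 was found for 2 and 1 of them, beside 17.5% of all tested genes. DESeq2 called 2 of the co-receptor genes and 1 of the trafficking genes, and limma-voom with sample weights called 1 and 0, all lower. Of all the genes they tested, these tools called 5.56% and 2.71% in either direction. Ly86, which encodes MD-1, the partner of the Tlr-like protein CD180, averaged 27.3 ± 2.75 CPM in Lgmn KO libraries and 81.7 ± 43.7 CPM in WT libraries (SD, n = 3 each), with a log2 fold change of -1.58 and an adjusted p of 0.0923 (edgeR). Cd14, which hands lipopolysaccharide to Tlr4, averaged 43.2 ± 2.85 CPM in Lgmn KO libraries and 85.9 ± 29.4 CPM in WT libraries (SD, n = 3 each), with a log2 fold change of -0.99 and an adjusted p of 0.0927 (edgeR). The groups did not overlap for either gene. Unc93b1, the chaperone of the endosomal receptors, averaged 306 ± 10.5 CPM in Lgmn KO libraries and 429.8 ± 97.6 CPM in WT libraries (SD, n = 3 each), with a log2 fold change of -0.49 and an adjusted p of 0.166 (edgeR). The log2 fold change of Ly96, which encodes the Tlr4 partner MD-2, was -0.06 (adjusted p = 0.853, edgeR). Cd36, a scavenger receptor that assists Tlr2 and Tlr6 and the most abundant of the co-receptor genes, was at 0.09 on that scale (adjusted p = 0.762, edgeR). Among the trafficking genes, Ap3b1, a subunit of the AP-3 adaptor complex, had -0.12 (adjusted p = 0.344) and Slc15a3, a transporter of the endolysosome and the most abundant of them, -0.01 (adjusted p = 0.977, edgeR).

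Among 6 genes of proteases described as cutting endosomal receptors, Ctsk rose, beside 0.311% of all tested genes called higher. Cathepsin K averaged 277 ± 15.6 CPM in Lgmn KO libraries and 163 ± 6.08 CPM in WT libraries (SD, n = 3 each), for a log2 fold change of 0.76, a standard error of 0.07 and an adjusted p of 0.0126 (edgeR). It lost its call without Lgmn KO replicate 2 (adjusted p = 0.0812) and without WT replicate 3 (adjusted p = 0.0540). Ctsb and Ctss, the genes of cathepsins B and S, had log2 fold changes of 0.03 (adjusted p = 0.903) and -0.39 (adjusted p = 0.207) in edgeR. Ctsl, the gene of cathepsin L, had 6074, 2346 and 2501 CPM in Lgmn KO replicates 1, 2 and 4, against 1851, 2131 and 2120 CPM in WT replicates 1, 2 and 3. Every Lgmn KO library stood above every WT library, as for 10.7% of all tested genes. Lgmn KO replicate 1 stood far above the rest (log2 fold change of 0.84 for Ctsl, adjusted p = 0.269, edgeR).

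Within the signalling chain, 0 of 5 adaptor genes, 0 of 18 kinase and ubiquitin ligase genes, 0 of 6 transcription factor genes and 0 of 8 inhibitor genes were called in edgeR. Of all tested genes, edgeR called 0.789% in either direction. In these roles 2, 4, 2 and 4 genes had an unadjusted p below 0.05, beside 17.5% of all tested genes. DESeq2 called 2, 0, 1 and 2 of them and limma-voom with sample weights 1, 0, 0 and 1, all lower. Of all the genes they tested, these tools called 5.56% and 2.71% in either direction. Myd88, the adaptor directly above Irak4, averaged 53.8 ± 4.27 CPM in Lgmn KO libraries and 72.3 ± 8.92 CPM in WT libraries (SD, n = 3 each), with a log2 fold change of -0.43 and an adjusted p of 0.108 (edgeR). Ticam2, which encodes the bridging adaptor TRAM of Tlr4, averaged 39.7 ± 3.15 CPM in Lgmn KO libraries and 53.2 ± 4.23 CPM in WT libraries (SD, n = 3 each), with a log2 fold change of -0.42 and an adjusted p of 0.0844 (edgeR). Map3k7, the gene of the kinase TAK1 below Irak4, averaged 68.1 ± 1.25 CPM in Lgmn KO libraries and 57.1 ± 5.06 CPM in WT libraries (SD, n = 3 each), with a log2 fold change of 0.25 and an adjusted p of 0.175 (edgeR). For Pik3ap1, the most abundant adaptor gene, the log2 fold change was -0.12 (adjusted p = 0.570, edgeR). Ikbkg, the regulatory subunit of the IKK complex, had 0.39 (adjusted p = 0.246), and Tab2, a partner of TAK1 and the most abundant gene of its role, 0.02 (adjusted p = 0.973, edgeR). The kinases and the ubiquitin ligase that act next to Irak4 had log2 fold changes of -0.09 for Irak1, 0.02 for Traf6 and 0.46 for Irak2 (adjusted p = 0.752, 0.938 and 0.435, edgeR). Irf5, a transcription factor activated below MyD88, averaged 124 ± 7.89 CPM in Lgmn KO libraries and 155 ± 7.52 CPM in WT libraries (SD, n = 3 each), with a log2 fold change of -0.32 and an adjusted p of 0.0933 (edgeR). Nfkbia, the NF-kB inhibitor that NF-kB itself induces, averaged 26.1 ± 1.40 CPM in Lgmn KO libraries and 42.8 ± 7.83 CPM in WT libraries (SD, n = 3 each), with a log2 fold change of -0.72 and an adjusted p of 0.0634 (edgeR). For Nfkb1, an NF-kB subunit gene, the log2 fold change was -0.26 (adjusted p = 0.166, edgeR). Among the inhibitors, Il1rl1, the receptor for interleukin-33, had -1.90 (adjusted p = 0.113) and Tollip, which binds Irak1 and was the most abundant of them, 0.16 (adjusted p = 0.267, edgeR).

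Among 13 tested target genes, 2 fell, beside 0.478% of all tested genes called lower, and 11 had a log2 fold change below 0, beside 50.4% of all tested genes. DESeq2 called 6 of them and limma-voom with sample weights 5, all lower, beside 5.56% and 2.71% of all the genes they tested called in either direction. Their median was -0.73, also with Nos2 at its bound. Acod1, listed in the table as Irg1, makes the metabolite itaconate and averaged 3.19 ± 1.04 CPM in Lgmn KO libraries and 49.7 ± 33.4 CPM in WT libraries (SD, n = 3 each), for a log2 fold change of -3.96 and an adjusted p of 0.0285 (edgeR). The cytokine gene Il1b averaged 0.571 ± 0.132 CPM in Lgmn KO libraries and 4.14 ± 1.63 CPM in WT libraries (SD, n = 3 each), for a log2 fold change of -2.84 and an adjusted p of 0.0277 (edgeR). Acod1 lost its call when Lgmn KO replicate 1, 2 or 4 or WT replicate 3 was left out (adjusted p of 0.0744 to 0.149), and Il1b for every library left out except WT replicate 1 (adjusted p of 0.0585 to 0.141, edgeR). Nos2, the inducible nitric oxide synthase, had 0 counts in every Lgmn KO library and 1.22 ± 0.564 CPM in WT (SD, n = 3), at least 24.8-fold lower in Lgmn KO against 3 counts over that group (adjusted p = 0.0544, edgeR). Tnf, another target, had 11.3, 11.2 and 11.7 CPM in Lgmn KO replicates 1, 2 and 4, against 10.7, 14.2 and 10.4 CPM in WT replicates 1, 2 and 3, and the groups overlapped (adjusted p = 0.912, edgeR).

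**Figure D5:**
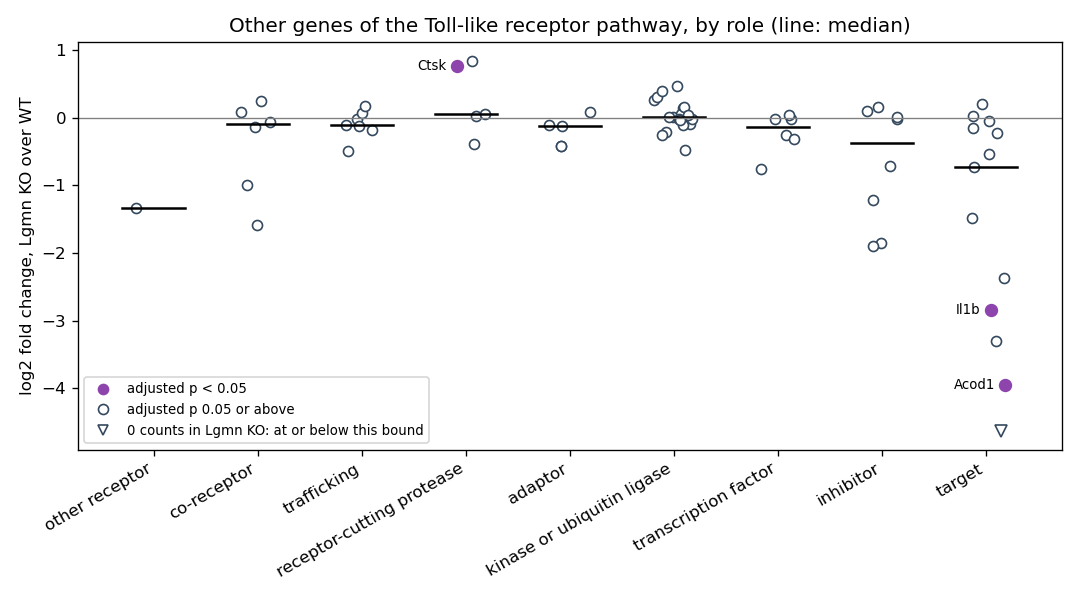
Log2 fold change, Lgmn KO relative to WT (vertical axis) for the 69 tested pathway genes other than Lgmn, by role, with a line at each role's median; horizontal scatter within a role is for legibility. Filled points passed the test (Ctsk higher, Il1b and Acod1 lower), and the triangle is Nos2 at its bound of -4.63.

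The genes whose profile over the 6 libraries was most like that of Tlr2 and of Tlr9, the surface and the endosomal receptor of smallest p, were picked among 7872 genes by the root mean square difference of log2 CPM centred on each gene's mean. For Tlr2 they were Itgal, an integrin subunit of leukocytes (difference of 0.1005), Arl4c, a small GTPase (0.142), and Cmklr1, a receptor for the chemoattractant chemerin (0.161). Itgal had 37.2, 33.8 and 33.6 CPM in Lgmn KO replicates 1, 2 and 4, against 69.5, 109 and 85.2 CPM in WT replicates 1, 2 and 3. For Tlr9 they were the scavenger receptor gene Stab1 (0.0959), Lst1 (0.115) and Oas2, an interferon-induced synthetase that responds to double-stranded RNA (0.117). Stab1 had 174, 191 and 257 CPM in Lgmn KO replicates 1, 2 and 4, against 209.9, 335 and 311 CPM in WT replicates 1, 2 and 3, so that Lgmn KO replicate 4 and WT replicate 1 crossed as they did for Tlr9.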

How the data were processed

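RNA was sequenced from cardiac macrophages, and the authors deposited 1 table of all genes with read counts and FPKM per library and their own log2 fold changes and p-values and q-values. The submitters' processing notes list HISAT2, TopHat and TopHat2 2.0.9 and a human build, while the table's gene positions are those of mouse GRCm38. The sources used here name no counting tool, strand setting or gene annotation. The deposited FPKM equal the deposited count over gene length and column total (checked on 9082 genes of 100 or more counts per library, all within 0.5 bases of a single length).

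From the counts, genes were kept by filterByExpr, scaled by TMM and tested with edgeR 4.0.16 (quasi-likelihood test, Lgmn KO against WT, no covariate) in R 4.3.3, with Benjamini-Hochberg adjustment over all 12546 tested genes and calls at an adjusted p below 0.05. The standard error of a fold change comes from its F statistic. The common biological coefficient of variation was 16.1%. Replicate libraries differed by more than sampling noise (chi-square divided by its degrees of freedom, 13.96 to 42.7), and each was counted on its own. That spread does not show that they came from separate animals. Sums and ratios over receptors use FPKM and have no test. Log2 CPM for profile likeness used a prior count of 2 and genes of at least 10 CPM on average.

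The members and all lists were chosen with earlier results of these data known. The text names all members, Lgmn, and from each role of the pathway list the called genes, the 2 with the smallest p-values and the most abundant gene (mean CPM); Ly96, Ctss, Ctsl, Irak1, Irak2, Traf6, Tnf and Nos2 fall outside this rule and were chosen after their values were seen. Alternatives were RLE factors, total counts, no filter, at least 10 counts in every library, DESeq2 1.42.0, limma-voom 3.58.1 with sample weights, a replicate block, a threshold of 0.1, leaving out each library and, chosen after seeing the data, merged exon lengths.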

Additional observations from a re-analysis of the deposited data

How the results depend on the processing

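The number of members called was 2 with RLE factors, total counts, no filter, at least 10 counts in every library, DESeq2, limma-voom with sample weights and a threshold of 0.1, and 0 to 4 when 1 library was left out. It was 0 without Lgmn KO replicate 1, 2 or 4 or WT replicate 3. With the replicate block 0 members, 39 of all genes and 2 pathway genes were called, and the adjusted p was 0.0934 for Tlr2 and 0.226 for Irak4. Replicates share only a number (deviations of numbers 1 and 2 correlate at 0.122 and 0.0757), so the block is no pairing by design. Over all genes 99 were called in the edgeR fit of the report, 165 with total counts, 318 with no filter, 63 with at least 10 counts, 780 with DESeq2 (5.56%), 340 with limma-voom (2.71%), 503 at 0.1, and 6 to 639 without 1 library. Pathway genes called were 4 in the report, 11 with no filter, 16 with DESeq2, 10 with limma-voom, 13 at 0.1 and 1 to 13 without 1 library. The causes were not tested. Of 130 member fold changes under alternatives 0 changed sign; 117 kept their side of the threshold, 11 of Tlr2 and Irak4 lost it and 2 (Tlr3 and Tlr8 without WT replicate 1) gained it. The log2 fold change lay between -1.33 and -1.10 for Tlr2 and between -0.67 and -0.54 for Irak4. The surface minus endosomal difference of -0.71 was -0.57 as mean log2(FPKM + 1), -0.76 in summed CPM, -0.75 with merged exons, -1.03 without Tlr6 and Tlr13, and -0.86 to -0.59 without 1 library. Tlr3 rested on the fewest counts, and the 3 libraries per group limit every comparison.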

Other observations

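Tlr1, Tlr4 and Tlr7 differed among libraries of 1 group by more than other members did, and the genes most like them over the 6 libraries were looked up after their values were seen, by the same measure as for Tlr2. Tlr7 was nearest to Tmem168, a membrane protein gene, with a root mean square difference of 0.177. Tmem168 had 90.0, 45.7 and 95.8 CPM in Lgmn KO replicates 1, 2 and 4 and 45.8, 53.7 and 51.1 CPM in WT replicates 1, 2 and 3, so its Lgmn KO replicate 2 also stood at about the WT level. Tlr1 had no gene as close: Ms4a7, Pld4 and Apoc2 differed by 0.346, 0.352 and 0.355. Tlr4 was farther from all genes compared, with Mxd4 at 0.534, and none of its 3 nearest genes shared the level of WT replicate 3 over WT replicate 2: Mxd4 had 38.4 and 38.7 CPM in WT replicates 2 and 3, and Cysltr1 had 26.5 and 20.98 CPM.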
